A study of Mus musculus with 262 samples.

Results

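Potassium channel genes, taken as all genes whose symbol begins with Kcn followed by letters, a number and at most 1 further letter with its number, comprised 93 genes in each of the 5 deposited tables, out of 47069 genes in the tables of transcript abundance. They were chosen by name alone. By family they were 15 inward rectifiers (Kcnj), 14 two-pore-domain channels (Kcnk), 35 voltage-gated channels (Kcna to Kcnh, Kcns and Kcnv), 5 members of the Kcnq family, 5 subunits of the large-conductance calcium-activated channel (Kcnma1 and Kcnmb), 4 calcium-activated channels of small or intermediate conductance (Kcnn), 3 sodium-activated or sperm channels (Kcnt, Kcnu) and 12 auxiliary subunits (Kcnab, Kcne, Kcnip). All 93 were found in the GENCODE M21 annotation of GRCm38.

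The samples came from kidneys of male mice aged 2 months. They comprised 235 single cells of C57BL/6 mice, which the authors named as 87 type A intercalated, 23 type B intercalated, 74 principal, 19 proximal tubule and 32 non-epithelial cells. Cells had been sorted before capture on DBA, c-Kit, both, or PNA, the last for 17 of the 23 type B cells and for no other type. Bulk samples of C57BL/6 kidney were sorted on c-Kit (2) or on DBA (2), a lectin that binds collecting duct cells. Kidneys of the strain Atp6v1b1GFP, whose name joins a proton pump gene of intercalated cells to GFP, were sorted by fluorescence into GFP-positive (2) and GFP-negative (2) samples. The labels do not say how GFP is driven in that strain. Single tubules dissected by hand from C57BL/6 mice numbered 11 for the cortical collecting duct (CCD) and 8 for the cortical part of the thick ascending limb (cTAL).

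Potassium channels set the membrane voltage of tubule cells and return to the blood, or pass to the urine, the potassium that the sodium pump brings in. In the principal cell, the renal outer medullary potassium channel ROMK, encoded by Kcnj1, and the large-conductance channel BK, whose pore is Kcnma1, secrete potassium into the urine, while channels built from Kcnj10 and Kcnj16 act on the blood side. ROMK also recycles potassium across the apical membrane of the thick ascending limb.

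Promoters are shown for 3 members with a window in the RefSeq table that differed between principal and intercalated cells in what follows: Kcnj1 and Kcnj10, highest in principal cells, and Kcns3, highest in type A cells. Each line gives the 250 bases before a RefSeq transcription start, 5′ to 3′ on the gene's strand, in GRCm38.p6. Capitals mark AGAACA, or TGTTCT where the match lies on the other strand, the half-site bound by the mineralocorticoid and glucocorticoid receptors.
Kcnj1 (chr9:32393735-32393984, plus strand): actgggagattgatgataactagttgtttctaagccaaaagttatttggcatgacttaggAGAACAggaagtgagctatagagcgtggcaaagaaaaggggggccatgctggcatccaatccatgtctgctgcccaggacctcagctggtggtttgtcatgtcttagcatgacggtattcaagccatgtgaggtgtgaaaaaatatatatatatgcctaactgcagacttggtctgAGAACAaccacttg
Kcnj10 (chr1:172340960-172341209, plus strand): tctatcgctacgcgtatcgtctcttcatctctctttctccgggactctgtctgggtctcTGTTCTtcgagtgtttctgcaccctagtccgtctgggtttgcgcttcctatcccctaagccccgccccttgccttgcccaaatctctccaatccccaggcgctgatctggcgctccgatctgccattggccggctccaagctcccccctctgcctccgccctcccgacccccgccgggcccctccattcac
Kcns3 (chr12:11150843-11151092, minus strand): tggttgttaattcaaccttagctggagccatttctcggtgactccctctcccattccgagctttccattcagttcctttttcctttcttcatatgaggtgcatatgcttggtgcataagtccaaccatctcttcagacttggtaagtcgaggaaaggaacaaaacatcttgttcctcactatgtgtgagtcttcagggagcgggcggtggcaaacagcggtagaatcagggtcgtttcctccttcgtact
The half-site was found at bases -190 and -14 of Kcnj1 and on the other strand at -191 of Kcnj10, counted from the start, and not in this window of Kcns3. Nor was it found in the 4 windows of Kcnj16 or the window of Kcnk1, which were also highest in principal cells. RefSeq windows of 300 bases (250 before and 50 after the start) were at hand for 68 of the 93 members, as 93 windows. AGAACA occurred in 16 of these 93 windows and in 19.0% of all 32851 windows. Both strands were searched for every motif. GTAAACA, a forkhead motif, occurred in 0 member windows and 3.65% of all windows, and AACCGGTT, a grainyhead motif, in 0 and 0.146%. The full palindromic receptor site, which contains the half-site, occurred in 0 member windows and 0.00913% of all windows. A match describes letters only.

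Read depth was known for the GFP samples alone, with 35530885 to 40815091 reads assigned to genes per sample. The other values were TPM, a transcript's share scaled to a fixed total, which are scaled by gene length and keep no depth. No source says that replicates came from separate animals, so p-values measure the spread between these samples, which may be technical. The tables were normalized separately and were tested only within a table. In the bulk samples, fewer cells of a type and less RNA per cell cannot be told apart. No source used here says whether counting used strand, so genes that share exonic bases with another gene are uncertain. Among the members named below these are Kcnj13 (with Gigyf2), Kcnh7 (with Gca), Kcnq1 (with the antisense Kcnq1ot1), Kcnj15, Kcnk1, Kcnk3, Kcnn2, Kcnma1, Kcnmb4, Kcnab3, Kcne3, Kcnd3, Kcnj3 and Kcnq5. Among the tubules, 1 CCD stood apart, with 7621 genes at a TPM of at least 1 and a correlation with the median CCD of 0.701, while the CCDs had medians of 12282 genes and 0.951. It is given separately where it bears on a result.

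Most potassium channel genes were not seen in single cells. Of the 93 members, 57 reached 1 TPM in no cell, and 22 reached a mean of 1 TPM in at least 1 cell type. A principal cell held a median of 5 members at a TPM of at least 1, a proximal tubule cell 4, a type A cell 2, a non-epithelial cell 2 and a type B cell 1. The sum over all members showed the same lead of the principal cells, with a median of 1749 TPM per cell, against 352 TPM in proximal tubule, 167 TPM in non-epithelial cells. The 2 intercalated types were lowest, with medians of 32.2 TPM for type A and 13.1 TPM for type B. Genes detected per cell differed less, with medians from 2704 in type A to 3253 in proximal tubule cells. No animal is named for a cell, so each type is a single sample and no difference between types was tested. The 95% intervals on shares of cells below are exact (Clopper-Pearson) and cover counting error only.

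**Figure D1:**
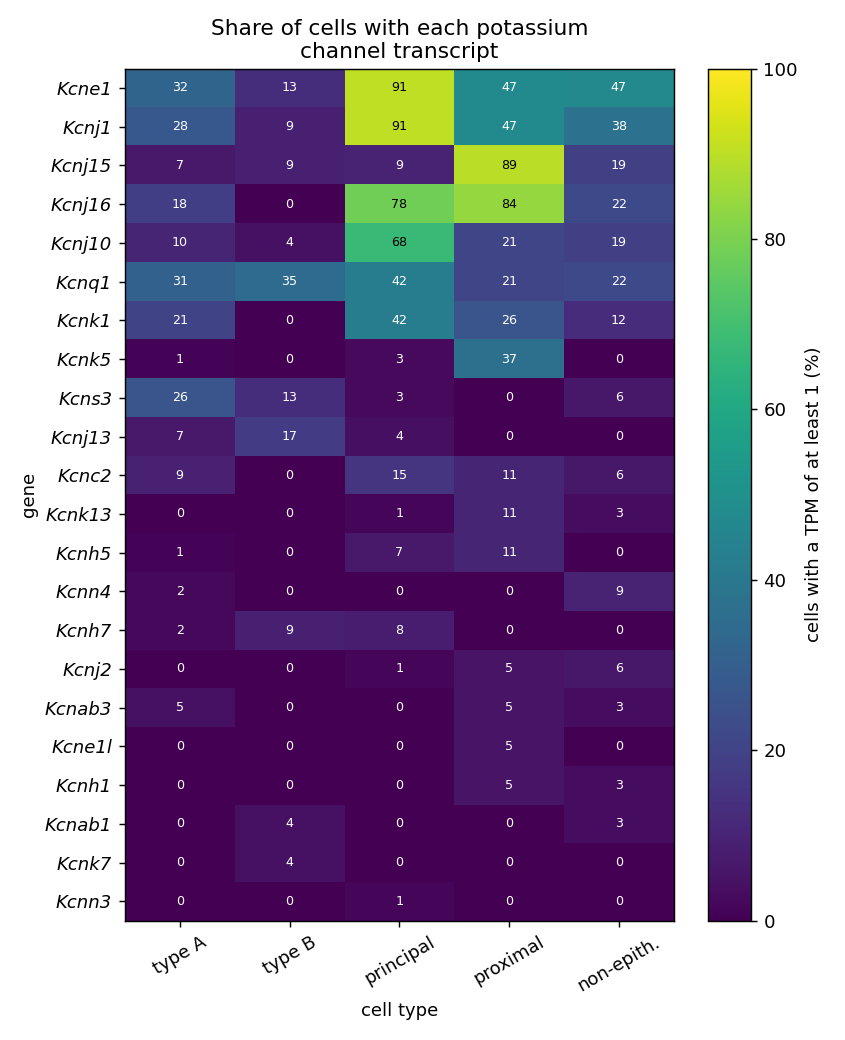
Percentage of cells that reached 1 TPM (colour and printed value) for the 22 potassium channel genes that reached a mean of 1 TPM in a cell type, by type on the horizontal axis. Kcne1 and Kcnj1 were seen in most principal cells, Kcnj15 and Kcnj16 in most proximal tubule cells, and all but 1 of the 22 in fewer than 20% of type B cells.

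Detection in at least 20% of cells was reached by 6 members in principal cells, 8 in proximal tubule cells, 5 in type A, 4 in non-epithelial and 1 in type B cells, where the sole member was Kcnq1. These were 6.45%, 8.60%, 5.38%, 4.30% and 1.08% of the 93 members. Over all 47069 genes the shares were 10.0%, 12.1%, 9.34%, 9.76% and 10.9% in the same order.

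Kcnj1 (chromosome 9, 32372493 to 32399197 in GRCm38) had the highest mean of all members in principal cells. Its level there ran from 0.03 TPM to 5539 TPM with a median of 426 TPM and a mean of 814 TPM, and 67 of 74 cells reached 1 TPM (90.5%, interval 81.5% to 96.1%). Elsewhere the means were lower, at 79.4 TPM in proximal tubule, 51.8 TPM in non-epithelial and 31.9 TPM in type A cells, and type B cells had 1.47 TPM. Levels in these other types were low in most cells and high in a few, and all medians were under 1 TPM. The lowest share was in type B cells, 2 of 23 (8.70%, interval 1.07% to 28.0%), and the share in type A cells was 24 of 87 (27.6%, interval 18.5% to 38.2%). Transcripts of the water channel Aqp2, a defining principal cell marker, were present at 1 TPM or more in all 24 type A cells with Kcnj1 and in 34 of the 63 without it. The same held in proximal tubule cells, where 9 of the 9 cells with Kcnj1 had Aqp2, against 5 of the 10 without. In non-epithelial cells the counts were 10 of 12 and 5 of 20. The part of principal cell transcripts in these values was not tested. The 7 principal cells without Kcnj1 all held Aqp2, at a median of 642 TPM against 2052 TPM in the 67 others, and detected a median of 2942 genes against 2906.

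Kcne1 (chromosome 16, 92345982 to 92359468), a single-span subunit that slows and enlarges the current of Kcnq1, was at a level close to that of Kcnj1 in principal cells. Its median there was 554 TPM, its mean 768 TPM and its highest value 2922 TPM, and it was likewise found in 67 of 74 cells. Non-epithelial cells came next with a mean of 301 TPM but a median of 0.67 TPM. In that type 15 of 32 cells held it, 12 of them together with Aqp2. Of the 17 non-epithelial cells without Kcne1, 3 held Aqp2. Its pore-forming partner Kcnq1 (chromosome 7, 143106362 to 143427042) was spread far more evenly over the cell types. Mean Kcnq1 levels ran from 6.93 TPM in proximal tubule cells over 21.2 TPM in type A, 21.3 TPM in non-epithelial and 29.5 TPM in type B cells to 38.7 TPM in principal cells. The share of cells with Kcnq1 was 41.9% in principal (interval 30.5% to 53.9%), 34.8% in type B (16.4% to 57.3%) and 31.0% in type A cells (21.5% to 41.9%). These intervals overlap, so an order of the 3 collecting duct types could not be read from them. Both transcripts were present in 28 of 74 principal cells, 10 of 87 type A and 2 of 23 type B cells, and Kcnq1 without Kcne1 was present in 3, 17 and 6 cells.

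Kcnj10 (chromosome 1, 172341210 to 172374085) and Kcnj16 (chromosome 11, 110968033 to 111027968), which assemble into the main basolateral channel of the distal nephron, were both highest in principal cells. Kcnj16 had a mean of 157 TPM and a median of 24.4 TPM there, in 58 of 74 cells (78.4%, interval 67.3% to 87.1%). Kcnj10 had a mean of 53.3 TPM and a median of 7.12 TPM, in 50 of 74 cells (67.6%, interval 55.7% to 78.0%). Both were present in 43 principal cells, Kcnj16 alone in 15, Kcnj10 alone in 7 and neither in 9. Proximal tubule cells held Kcnj16 as widely, in 16 of 19 cells at a mean of 73.1 TPM, but Kcnj10 in 4 of 19. Kcnj16 reached 1 TPM in 0 of 23 type B cells, which allows a share of cells with detection of up to 14.8%. Kcnk1, a two-pore channel also known as TWIK-1, reached a mean of 55.7 TPM in principal cells, with detection in 31 of 74 (interval 30.5% to 53.9%). Type A cells had a mean of 25.9 TPM, with detection in 18 of 87 (interval 12.7% to 30.7%).

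Proximal tubule cells held other members of the inward rectifier and two-pore families. Kcnj15 (chromosome 16, 95257558 to 95300260), encoding Kir4.2, a basolateral channel of the proximal tubule, had a median of 90.8 TPM and a mean of 164 TPM there and was found in 17 of 19 cells (89.5%, interval 66.9% to 98.7%). Its mean was 28.9 TPM in non-epithelial and 3.80 TPM in principal cells, and lower still in the intercalated cells (type A 1.71 TPM, type B 0.820 TPM). Transcripts of the proximal tubule marker Slc34a1 were present in 5 of the 6 non-epithelial cells with Kcnj15, and in 13 of all 32. In principal cells the counts were 4 of 7 and 27 of 74, in type A cells 2 of 6 and 29 of 87, and in type B cells 0 of 2 and 5 of 23. The part of proximal tubule transcripts in these values was not tested. Kcnk5, the acid-sensitive two-pore channel TASK-2, had a mean of 36.3 TPM in proximal tubule cells, in 7 of 19 cells (interval 16.3% to 61.6%), with a median of 0.02 TPM. It was found in only 1 type A cell and 2 principal cells, and in no type B or non-epithelial cell. Slc34a1 was present in the 2 principal cells and not in the type A cell.

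Members at a TPM of at least 1 in any cell numbered 17 in type A and 12 in type B cells. Principal cells had 23, proximal tubule cells 17 and non-epithelial cells 19, from unequal numbers of cells. Kcns3 (chromosome 12, 11090202 to 11151056), a silent subunit that modifies Kcnb channels and forms no current alone, averaged 28.0 TPM over the type A cells. Its median there was 0.07 TPM, and 23 of 87 cells reached 1 TPM (26.4%, interval 17.6% to 37.0%). It was found in 3 of 23 type B cells, 2 of 74 principal cells, 2 of 32 non-epithelial cells and 0 of 19 proximal tubule cells. Kcnj13 (chromosome 1, 87386363 to 87394729), encoding Kir7.1, fell outside the rule for named genes and was singled out after its values were seen. It was found in 6 of 87 type A cells, each between 237 and 1176 TPM, and in 4 of 23 type B cells, from 1.18 to 602 TPM. In principal cells it was found in 3 of 74, the highest at 385 TPM, and in no proximal tubule or non-epithelial cell. No type A cell lay between 1 and 237 TPM. The intervals of these shares overlap (2.57% to 14.4% in type A, 4.95% to 38.8% in type B and 0.844% to 11.4% in principal cells), so no order could be read.

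The BK channel was hardly seen in single cells. Kcnma1 reached 1 TPM in 1 of 74 principal cells, at 32.9 TPM, and in no other cell, and in type A cells 0 of 87 allows a share of cells with detection of up to 4.15%. Its beta subunit Kcnmb4 was found in 1 principal and 1 non-epithelial cell, never with Kcnma1, and Kcnmb1 and Kcne3 in none. The depth of the cells is unknown, so these counts do not bound the share of cells that express the genes.

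**Figure D2:**
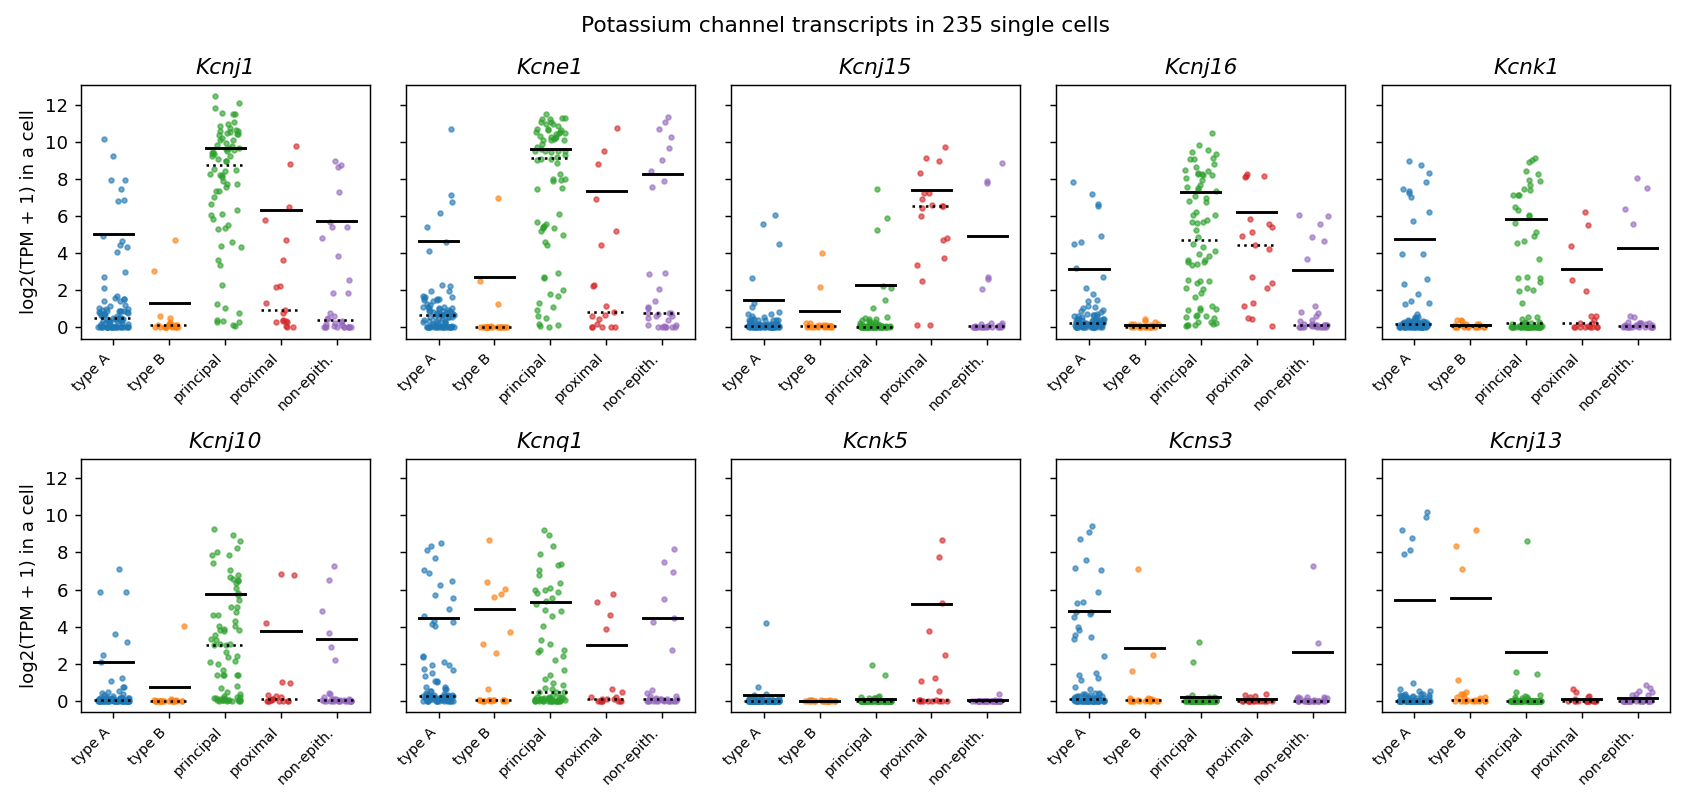
Each point is 1 cell, by cell type, on the log2(TPM + 1) scale. The solid line marks log2 of the mean TPM plus 1 and the dotted line that of the median, for the 9 members chosen by level and Kcnj13. Kcnj1 and Kcne1 fill the upper range in principal cells, with medians of 426 and 554 TPM, while most other panels hold a few high cells above a majority near 0.

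The c-Kit and DBA samples address how a fraction labelled for c-Kit, which type A cells carry, differs from one labelled by the lectin. The label check held: all 12 intercalated markers were called higher in the c-Kit samples and all 7 principal markers lower. Kit, the gene of the antigen used for the sort, is among the 12. Principal marker levels summed to 2524 to 3400 TPM in the c-Kit and 22366 to 24929 TPM in the DBA samples, and all 7 were tested. Of the 93 members, 28 had a mean of at least 1 TPM and were tested. Called at an adjusted p under 0.05 (limma on log2(TPM + 1), Benjamini-Hochberg over all 14341 genes tested) were 20 of them, 15 lower and 5 higher in the c-Kit samples. Over all genes 44.3% were called, 28.1% higher in DBA and 16.1% higher in c-Kit. The median log2 difference of c-Kit minus DBA was -0.73 over the 28 members and -0.11 over all genes.

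Kcnj1 stood at 193 and 156 TPM in the c-Kit samples and at 902 and 783 TPM in the DBA samples. The groups lay far apart, and the log2 difference was -2.27 (SE 0.12, adjusted p 2.40e-05, limma). Kcne1 had the largest negative difference on the log2(TPM + 1) scale, from 562 and 551 TPM in the DBA samples to 105 and 85.1 TPM in the c-Kit samples (log2 difference -2.54, SE 0.10, adjusted p 9.96e-06, limma). Kcnj16 had 74.4 and 65.4 TPM against 233 and 233 TPM, and Kcnj10 had 3.86 and 4.16 TPM against 12.8 and 12.9 TPM. Their differences were -1.73 (SE 0.08) and -1.47 (SE 0.14), both called. Kcnj16 thus exceeded Kcnj10 17.5-fold at the median of the c-Kit and 18.1-fold at that of the DBA samples. This ratio, like that of Kcne1 to Kcnq1 below, was chosen after the values were seen and is a description.

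Kcnq1 moved apart from its partner. It had 211 and 211 TPM in the c-Kit and 175 and 170 TPM in the DBA samples (log2 difference 0.29, SE 0.06, adjusted p 0.00668, limma). The call was lost with no variance trend and without DBA replicate 2, and the adjusted p from limma ran from 0.00422 to 0.0569 over its alternatives. Kcne1 exceeded Kcnq1 3.23-fold in the DBA samples and was 0.450 of it in the c-Kit samples. All 5 two-pore-domain members tested were lower in the c-Kit samples. Among these, Kcnk5 had 22.8 and 19.4 TPM against 43.7 and 48.6 TPM (-1.10, SE 0.11), and Kcnk1 had 68.3 and 60.0 TPM against 95.8 and 94.4 TPM (-0.56, SE 0.08). Kcnk6 and Kcnk13 were at about 1 against 5 TPM, and Kcnk3 was called at the margin (adjusted p 0.0490, limma). Kcnj15 was lower as well, with 57.2 and 49.4 TPM against 94.6 and 101 TPM (-0.87, SE 0.09). The proximal tubule markers moved with Kcnk5 and Kcnj15: 6 of 6 were lower in the c-Kit samples, with sums of 1340 to 1478 TPM against 2733 to 2800 TPM, and their part in these differences was not tested.

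The members called higher in the c-Kit samples were Kcns3, Kcnj13, Kcnn4, Kcnab3 and Kcnq1. Kcns3 had 55.2 and 51.4 TPM against 1.86 and 2.25 TPM (log2 difference 4.15, SE 0.13, adjusted p 4.70e-06, limma). Kcnj13 had 32.6 and 24.1 TPM against 5.02 and 7.06 TPM (2.06, SE 0.20). Kcnn4, the intermediate-conductance calcium-activated channel also known from blood cells, had 4.87 and 3.76 TPM against 1.02 and 1.11 TPM (1.36, SE 0.21). In single cells Kcnn4 was seen in 3 of 32 non-epithelial cells, 2 of 87 type A cells and no other. Kcnab3, a cytoplasmic beta subunit, had 5.26 and 4.08 TPM against 1.16 and 1.57 TPM (1.26, SE 0.22) and lost the call without DBA replicate 1. All 6 immune markers were called, with the sign opposite to that of Kcnn4. Their sums were 3805 to 4034 TPM in the c-Kit and 12587 to 13130 TPM in the DBA samples. The 15 members called lower, Kcnk3, Kcnk6 and Kcnk13 among them, shared the sign of these markers, while the 5 called higher did not. The part of immune cells in any of these differences was not tested.

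The GFP samples compare sorted cells with and without the reporter fluorescence. The label check held here too, with 12 of 12 intercalated markers called higher in the GFP-positive samples. Atp6v1b1, the gene in the name of the strain, is among the 12. Other cell types moved as well. Of the principal markers 6 of 7 were higher in the GFP-positive samples, with sums of 1125 to 1864 CPM (reads scaled to library size) against 497 to 608 CPM, and 3 of 3 distal convoluted tubule markers were higher. All 6 proximal tubule markers were lower, with sums of 1638 to 2602 CPM against 13468 to 13615 CPM, as were 5 of 5 immune and 4 of 4 endothelial markers tested. Of 4 mural and stromal markers 1 was called lower. Of 5 thick ascending limb markers 1 was called higher and 1 lower. Their sums were high in both groups, at 9881 to 14796.5 CPM in the GFP-positive and 8330 to 8641 CPM in the GFP-negative samples. The part of these cells in the differences below was not tested. Of the 93 members, 53 were tested and 23 were called (edgeR quasi-likelihood test, adjusted p under 0.05 over 15671 genes), 16 higher and 7 lower in the GFP-positive samples. Over all genes 32.6% were called, 15.2% higher and 17.3% lower. The median log2 difference of GFP-positive minus GFP-negative was 0.43 over the members and 0.02 over all genes.

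Among the inward rectifiers, Kcnj1 and Kcnj10 were higher in the GFP-positive samples. Kcnj1 had 898 and 783 CPM in GFP-positive and 337 and 285 CPM in GFP-negative samples (log2 difference 1.43, SE 0.19, adjusted p 7.18e-04, edgeR). Kcnj10 had 204 and 182 CPM against 61.3 and 49.9 CPM (1.80, SE 0.18). Kcnj16 did not follow its partner: its groups overlapped, with 1349 and 856 CPM against 979 and 1011 CPM (0.15, SE 0.24, adjusted p 0.681, edgeR). Kcnj13 had 25.4 and 25.6 CPM against 7.61 and 10.7 CPM (1.48, SE 0.27).

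Called lower in the GFP-positive samples were 7 members, among them 3 inward rectifiers. Kcnj15 had 483 and 287 CPM in GFP-positive and 2207 and 2334 CPM in GFP-negative samples (log2 difference -2.56, SE 0.28, adjusted p 2.33e-04, edgeR). Kcnk5 had 19.3 and 18.1 CPM against 146 and 184 CPM (-3.14, SE 0.20, adjusted p 4.31e-05, edgeR). Kcnj8, the pore of the vascular ATP-sensitive channel, had 0.322 and 0.580 CPM against 2.32 and 3.66 CPM (-2.72, SE 0.69), and its regulatory partner Abcc9, no member, was lower by the same test (-3.11, SE 0.27). The call of Kcnj8 was lost on leaving out GFP-negative replicate 2, and on leaving out GFP-positive replicate 1. Kcnj2, a strong inward rectifier, had 10.1 and 4.01 CPM against 32.9 and 21.4 CPM (-1.94, SE 0.43). Kcnma1, the BK pore, had 5.56 and 3.56 CPM against 14.4 and 9.48 CPM (-1.39, SE 0.37, adjusted p 0.0220, edgeR), and the call was lost on leaving out GFP-negative replicate 1, and likewise GFP-positive replicate 2. Its smooth muscle beta subunit Kcnmb1 had 2.27 and 5.51 CPM as lowest and highest GFP-positive values against 0.263 and 1.64 CPM (2.01, SE 0.85). Kcnmb1 was not called (adjusted p 0.104, edgeR). It was called by DESeq2, by edgeR with the replicate number as a block, and by edgeR without 1 of the GFP-negative samples. Kcnj11, the pore of another ATP-sensitive channel, had 2.07 and 0.739 CPM against 0.141 and 0.410 CPM and was not called (2.36, SE 0.96). Kcne3, a subunit that holds Kcnq1 open, was not called in either sorted comparison, and its 83 and 1 reads in the GFP-negative samples were far apart.

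Kcnq1 and Kcne1 were both higher in the GFP-positive samples. Kcnq1 had 70.6 and 96.5 CPM against 7.87 and 7.28 CPM (log2 difference 3.46, SE 0.24, adjusted p 4.68e-05, edgeR), and Kcne1 had 12.6 and 15.5 CPM against 2.39 and 0.614 CPM (3.21, SE 0.57). Of the voltage-gated members 18 were tested, 6 of them called higher and 2 lower, beside 4 higher and 3 lower of 11 inward rectifiers. Kcns3 had 30.7 and 42.3 CPM against 3.63 and 1.05 CPM (3.94, SE 0.51). Kcng3, another silent subunit, had 10.4 and 11.2 CPM against 0.0937 and 0.410 CPM (5.45, SE 0.63, adjusted p 3.46e-04, edgeR), although it reached 1 TPM in no single cell. Kcnc4, a fast-inactivating channel of the Shaw family, had 28 and 46 reads in the GFP-positive samples and 0 and 0 reads in the GFP-negative samples. Against a floor of 3 counts over the GFP-negative group, this was at least 25.2-fold higher. With Kcnc4 at that bound the median over the members stayed at 0.43. Elsewhere Kcnc4 was at 0 TPM in every single cell and in the c-Kit and DBA samples, and reached at most 0.04 TPM in a tubule. Kcng1 was lower in the GFP-positive samples, with 0.188 and 0.158 CPM against 3.54 and 2.66 CPM (-4.14, SE 0.71). Also called were Kcnh7 (2.93, SE 0.62), Kcnq3 (2.86, SE 0.80) and Kcnj3 (2.65, SE 0.79), all higher, and Kcnh4 (-2.90, SE 0.89), lower. Of these, Kcnj3 and Kcnh4 were nearest the threshold (adjusted p 0.0332 and 0.0368, edgeR). The call of Kcnj3 was lost whichever of the 4 samples was left out. That of Kcnh4 was lost without GFP-negative replicate 1 and without GFP-positive replicate 2, and that of Kcnh7 without GFP-positive replicate 1. All kept their sign. Kcnh5, a channel of the ether-a-go-go family, had 4.81 and 3.96 CPM against 0.422 and 0.585 CPM (3.12, SE 0.58), but limma on the authors' RPKM values gave -0.32. The RPKM values called 5 of 21 members tested, 3 higher and 2 lower, beside 1639 of 13474 over all genes, 744 higher and 895 lower. This fit did not pair the columns by the first and second experiment in their names. With RPKM values Kcne1, Kcns3, Kcng3, Kcnj2, Kcnj13 and Kcnh7 kept their sign and lost the call. Kcnab3, at 1.76 (SE 0.56) from counts, had a difference of 0.01 on RPKM values and lost the call too.

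Of the members called in either sorted comparison, 13 were called in both, which is 65.0% of the c-Kit and DBA calls and 56.5% of the GFP calls. Calls were common over all genes, at 44.3% in the c-Kit and DBA samples and 32.6% in the GFP samples. Their overlap and shared signs over all genes were not counted, so those of the members cannot be read as particular to them. Of the 13 members, 7 had the same sign. Kcns3, Kcnj13, Kcnab3 and Kcnq1 were higher in both the c-Kit and the GFP-positive samples, and Kcnj15, Kcnj2 and Kcnk5 were lower in both. The other 6, Kcnj1, Kcnj10, Kcne1, Kcnc2, Kcnh5 and Kcnn3, were lower in the c-Kit and higher in the GFP-positive samples. The principal markers differed in sign in the same way. The GFP calls here are those from counts. On RPKM values Kcns3, Kcnj13, Kcnab3, Kcnj2 and Kcne1 were not called, and Kcnh5 had the other sign (-0.32) without a call. Whether the 2 contrasts differ was not tested, because their tables were normalized separately.

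**Figure D3:**
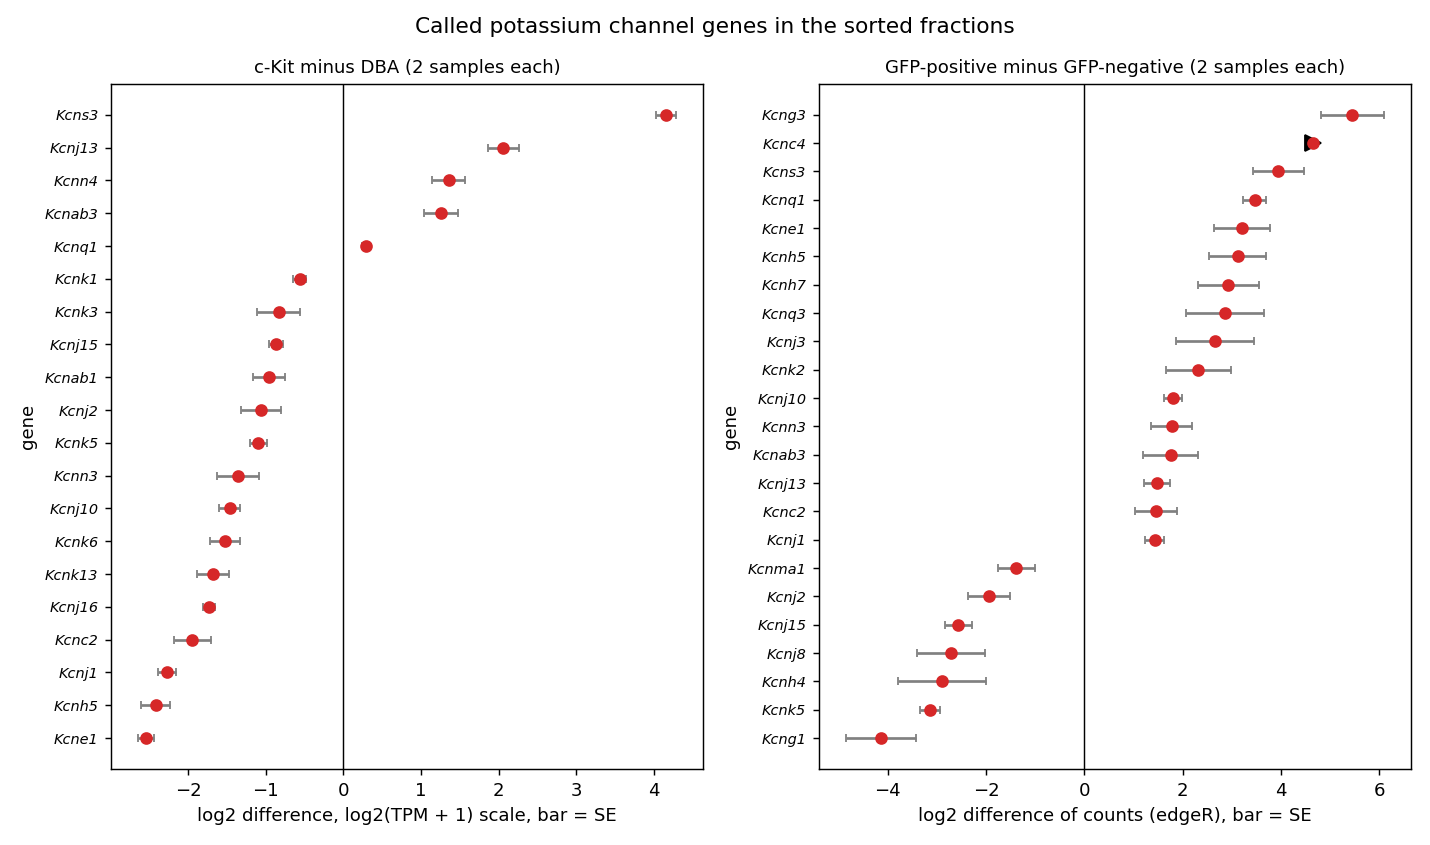
Log2 differences (points) with standard errors (bars) of the called members. The left panel shows c-Kit minus DBA on the log2(TPM + 1) scale and the right panel GFP-positive minus GFP-negative from counts, with 2 samples per group. The triangle for Kcnc4 is the lower bound of 4.65 against a floor of 3 counts. Kcns3, at 4.15 and 3.94, stands far to the right in both panels, and Kcnj1 lies on opposite sides of 0.

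The tubules address how a whole collecting duct segment differs from the thick ascending limb. Principal and intercalated markers were called higher in CCD in 7 of 7 and 12 of 12 cases, and 5 of 5 thick ascending limb markers were called lower. Of the 93 members, 23 were tested and 10 were called (limma, adjusted p under 0.05 over 13520 genes), 5 higher in CCD and 5 higher in cTAL. Over all genes 18.7% were called, 13.2% higher in CCD and 5.5% higher in cTAL. The median log2 difference of CCD minus cTAL was 0.38 over the members and 0.31 over all genes. Under quantile normalization the median over all genes moved to -0.03. The split of calls became 4 and 6 among the members and 1221 and 1244 over all genes, in place of 1782 and 744. Column names carry 7 prefixes whose meaning is not stated, 6 of them on both CCD and cTAL columns, and tubules with the same prefix may share a source.

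Kcnj1 had similar medians in both segments. It ran from 434 to 1658 TPM with a median of 942 TPM in the 11 CCDs, and from 730 to 1049 TPM with a median of 950.2 TPM in the 8 cTALs. The cTAL values lay inside the CCD range, and the log2 difference of 0.04 (SE 0.21, adjusted p 0.928, limma) was within the spread between tubules. Kcnj10 ran from 10.2 to 28.6 TPM with a median of 15.4 TPM in CCD and from 6.67 to 20.7 TPM with a median of 11.9 TPM in cTAL, and was not called (0.38, SE 0.31). Its partner Kcnj16 was higher in cTAL, with 173, 333 and 417 TPM (lowest, median, highest) against 76.2, 166 and 369 TPM in CCD (-0.87, SE 0.23, adjusted p 0.00855, limma). The CCD that stood apart was the highest of its group for both genes. Kcnj16 exceeded Kcnj10 11.7-fold at the median of the CCDs and 24.2-fold at that of the cTALs, with ranges of 4.97 to 27.6 and 14.5 to 59.5 that overlap.

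The 2 subunits of the slow delayed rectifier marked the CCD. Kcne1 ran from 554 to 917 TPM in CCD with a median of 680.3 TPM, and from 0.27 to 2.28 TPM in cTAL with a median of 0.615 TPM. No CCD overlapped a cTAL, and the log2 difference was 8.57 (SE 0.21, adjusted p 9.01e-19, limma). Kcnq1 was present in both segments, at 118, 243 and 315 TPM (lowest, median, highest) in CCD and 22.6, 53.1 and 67.8 TPM in cTAL (2.21, SE 0.23, adjusted p 8.98e-08, limma). The ratio of Kcne1 to Kcnq1 was 3.03 at the median in CCD, as against 3.23 in the DBA samples, and 0.00962 in cTAL. In every cTAL Kcne1 was under 3 TPM, while Kcnq1 was above 22 TPM. Kcne1l, a related small subunit now called Kcne5, went the other way, with a median of 9.66 TPM and a range of 0 to 24.4 TPM in cTAL against 0 to 2.62 TPM in CCD (-2.48, SE 0.56).

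Kcnj13 and Kcns3, both higher in the c-Kit than in the DBA samples, were higher in CCD. Kcnj13 ran from 0 to 68.5 TPM with a median of 30.5 TPM in CCD, where 10 of 11 tubules were above 1 TPM, and was above 1 TPM in 1 of 8 cTALs, at 3.85 TPM (log2 difference 4.40, SE 0.62, adjusted p 1.05e-05, limma). The highest CCD value belonged to the tubule that stood apart. The next was 67.8 TPM, and the lone CCD at 0 was another tubule. Kcns3 was above 1 TPM in 11 of 11 CCDs (1.95 to 49.2 TPM, median 22.9 TPM) and in 3 of 8 cTALs (up to 18.1 TPM), with a difference of 2.87 (SE 0.66, adjusted p 0.00293, limma). Here the tubule that stood apart was the lowest CCD. Kcnh5 was above 1 TPM in 6 of 11 CCDs and in 0 of 8 cTALs. It was called at the margin (1.35, adjusted p 0.0392, limma) and lost the call in 20 of 28 alternatives.

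Higher in cTAL were Kcnk1, Kcnt1, Kcnn2, Kcnj16 and Kcne1l. For Kcnk1 the levels ran from 138 to 385 TPM with a median of 211 TPM in cTAL and from 24.7 to 194 TPM with a median of 86.5 TPM in CCD (-1.48, SE 0.28, adjusted p 3.73e-04, limma). Its lowest CCD value belonged to the tubule that stood apart, and the ranges overlap. Kcnt1, a sodium-activated channel also called Slack, was above 1 TPM in 7 of 8 cTALs with a median of 25.1 TPM. In CCD it was above 1 TPM in 2 of 11, at 1.03 and 16.7 TPM (-3.55, SE 0.65, adjusted p 2.84e-04, limma). Kcnn2, a small-conductance calcium-activated channel, was above 1 TPM in 7 of 8 cTALs with a median of 15.7 TPM and a range of 0.01 to 37.7 TPM, and reached at most 2.35 TPM in CCD (-3.14, SE 0.57, adjusted p 2.32e-04, limma). All 5 had groups that overlapped. Kcnn2 and Kcnt1 each had 1 cTAL near 0, and Kcne1l had 2 cTALs at 0.

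Without the CCD that stood apart, 10 of 19 members tested were called, beside 3078 of 13444 over all genes. That CCD alone was high in Kcnab3 (36.4 TPM against at most 2.26 TPM in the other CCDs), Kcnj14 (22.6 against 0.21 TPM), Kcnd3 (20.4 against 2.03 TPM), Kcnq5, Kcnn3 and Kcnj3. Kcnj3 was not tested, and the other 5 were not called. Single tubules also stood out for Kcna4, at 11.2 TPM in 1 CCD, and for Kcnk5 and Kcnj15, at 20.2 and 24.0 TPM in another CCD. No BK subunit reached the mean of 1 TPM needed for the test.

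**Figure D4:**
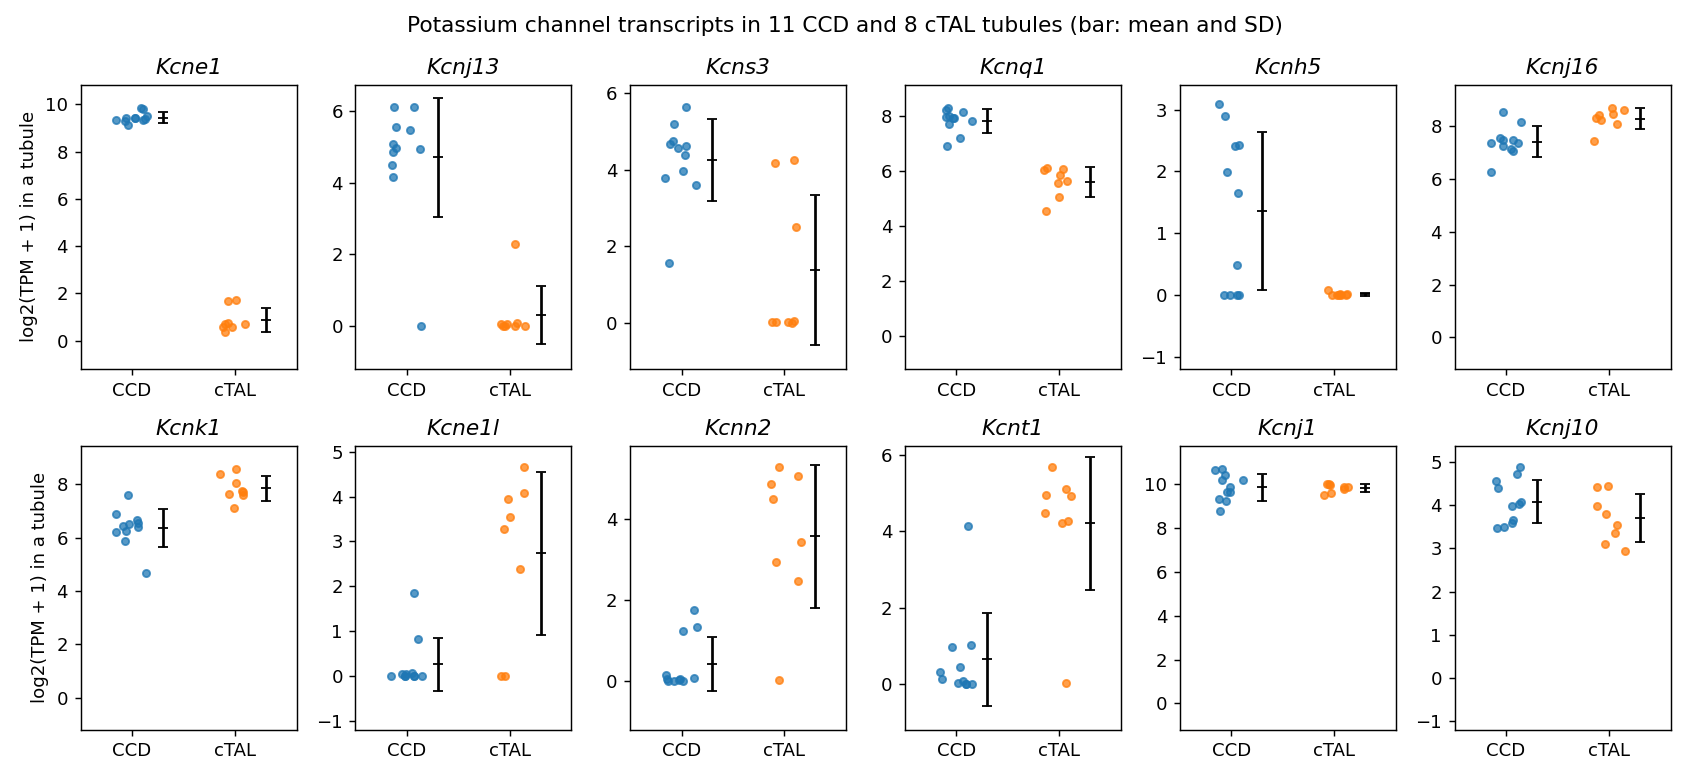
Each point is 1 tubule, on the log2(TPM + 1) scale, for the 10 called members and for Kcnj1 and Kcnj10. Bars beside the points give the mean and the SD over 11 CCD or 8 cTAL tubules. Kcne1 and Kcnq1 show no overlap between segments, Kcnj1 lies near 10 in both, and Kcnt1 and Kcnn2 each have 1 cTAL near 0.

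Other genes of potassium and sodium handling were read from a list of 34 non-members. In the c-Kit and DBA samples 24 were tested, 5 higher and 11 lower in c-Kit. In the GFP samples 30 were tested, 18 higher and 4 lower, and in the tubules 24 were tested, 10 higher in CCD and 6 higher in cTAL. Over all genes, the shares called were 44.3% in the c-Kit and DBA samples, 32.6% in the GFP samples and 18.7% in the tubules. All 3 subunits of the epithelial sodium channel, whose current drives potassium secretion through ROMK, had the sign of Kcnj1 in both sorted comparisons. Scnn1g had log2 differences of -2.26 (SE 0.11) for c-Kit minus DBA and 3.41 (SE 0.23) for GFP-positive minus GFP-negative. In the tubules the channels parted: Scnn1g was 8.94 higher in CCD on the log2 scale (SE 0.19), where Kcnj1 did not differ beyond its spread. The cotransporter Slc12a1, which works beside ROMK in the thick ascending limb, had 3746 ± 843 TPM in cTAL (SD, n = 8) and 10.5 ± 8.46 TPM in CCD (SD, n = 11). The potassium-reabsorbing pump subunit Atp12a was lower in the c-Kit samples (-1.82, SE 0.20), higher in the GFP-positive samples (4.89, SE 1.16) and higher in CCD (2.63, SE 0.64).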

How the data were processed

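The measurements came from 5 tables deposited by the authors. TPM values, scaled by the authors to a fixed total in each sample, covered 235 cells, 4 bulk samples and 19 tubules as deposited. Their unit is from the deposited tables' names, except for the tubules, whose columns sum to between 999999 and 1000001. Read counts (HTSeq) and RPKM values of the GFP samples were made by the authors with RefSeq genes of mm10, going by the deposited tables' names. The submitters' processing notes name STAR 2.5.1b, RSEM 1.2.31, Seurat and GRCm38.p5 with no role. Reads in no feature, 66.5% to 72.7%, were left out.

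The members and lists were chosen with earlier results of these data known. For counts, edgeR 4.0.16 (TMM, filterByExpr, quasi-likelihood test) was run under R 4.3.3. For TPM, limma 3.58.1 with a variance trend was run on log2(TPM + 1), which understates changes of low genes, keeping mean levels of 1 TPM or more. P-values were adjusted over all genes tested (Benjamini-Hochberg). The fits were tested on simulated data. Alternatives were DESeq2 1.42.0, other filters, pseudocounts, normalizations and leaving out samples.

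Named members were a list of 17, up to 8 called members per direction with the largest differences whose groups did not overlap and whose higher group averaged at least 1 TPM or CPM and, in cells, members averaging at least 5 TPM in a type with detection in at least 20% of its cells. Kcnj13, Kcns3, Kcnn2, Kcnt1, Kcnh5 and Kcne1l in the tubules, and others beyond this rule, were named after their values were seen. Of the 17, Kcna1, Kcnmb2 and Kcnmb4 were tested in no comparison. Doublets were not called.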

Additional observations from a re-analysis of the deposited data

Results flagged for a closer look

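In the 8 cTAL tubules, 15 members were checked for a value far from the rest, and 3 had one, each the highest of its group. Kcnk5 reached 8.90 TPM in 1 cTAL, where 6 others were at 0. Kcnj13 reached 3.85 TPM in the same tubule, where the next was 0.05 TPM. Kcnh5 reached 0.05 TPM in another, a level under the 1 TPM used for detection. The rule sets the gap to the next value against the range, and flags about 5% of groups whose values are normally distributed. Many cTAL values of these members were at or near 0, so that rate does not hold here. The 3 of 15 therefore cannot be judged against it.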

How the results depend on the processing

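The count of members called in the GFP samples was 23 and fell to 5 with limma on RPKM values, where 21 were tested. That of c-Kit against DBA was 20 and fell to 9 with a mean of at least 10 TPM, where 9 were tested. This last fit called 4789 of 9212 genes. Leaving out 1 sample gave 16 to 22, 15 to 22 and, for the tubules, 9 to 10. Over all genes the counts moved by over 1.5 times to 1639 of 5101 with RPKM values, to 3600 and 3458 of 6348 without DBA replicate 1 or 2, and to 4401 (sample weights) and 1231 (mean per prefix with the prefix as a block) of 2526 in the tubules. Quantile normalization changed the split of c-Kit and DBA calls from 2315 higher and 4033 lower to 3055 and 3072.

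Same-numbered bulk samples share only a number in their labels. The RPKM columns are named by a first and a second experiment, each with a GFP-positive and a GFP-negative column. These experiments are not stated to be the replicate numbers. The fit on RPKM values used no block, so a pairing by experiment was not tested. With the replicate number as a block 24 members were called in the GFP samples and 19 in c-Kit against DBA, beside 5897 of 15671 and 6271 of 14341 genes. Deviations of same-numbered samples correlated at 0.143 and 0.026. The planned block by running number could not be run for the tubules, whose columns carry other numbers. With the column prefix as a block, added after seeing the data, 9 members were called, with the mean per prefix 9, and with both 8. Of all 13520 genes these fits called 2588, 1796 and 1231. Kcne1l was lost with both (adjusted p 0.107, limma).

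Members detected in at least 20% of cells became 9 in type A, 12 in type B and 10 in non-epithelial cells with TPM above 0, 1 in type A with a TPM of at least 5, and 2 in type B among cells with at least 2000 genes. Type B cells, lowest at 1 TPM, thus passed type A and non-epithelial cells with TPM above 0, so the order of types depends on the cut. In the GFP samples 18 and in the tubules 21 called differences of named members lost the call in an alternative, keeping their sign, 20 of the 21 for Kcnh5.

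Reversals touched members not called, except Kcnh5 with RPKM values (-0.32). Leaving out 1 sample gave -5.10 to 2.64 (GFP) and -0.33 to 0.73 (c-Kit against DBA) for Kcne3, and -0.24 to 0.44 (GFP) for Kcnj16. In the tubules, quantile normalization gave -0.0432 for Kcnj1, -0.0033 for Kcnj10 and -0.115 for Kcnk5, and sample weights gave -0.143 for Kcnj1. Kcnk5 was -0.024 with the prefix block. Leaving out 1 tubule gave -0.0434 to 0.150 for Kcnj1 and -0.0921 to 0.421 for Kcnk5. The cause of these changes was not tested. Depth limits what can be said of the members near 0 in single cells.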
